A study of Mus musculus with 8 samples.

Results

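The renin-angiotensin system genes were taken from the gene table of aortic tissue by symbol, with no use of measured values. The list held 9 genes, namely Agt, Ren1, Ace, Agtr1a, Agtr1b, Agtr2, Agtrap, Enpep and Lnpep, and 6 of them were found among the 13839 genes of the table. The angiotensin receptor genes Agtr1a, Agtr1b and Agtr2 were not analysed here. The samples were 3 TAD and 5 control libraries of mouse aortic tissue. The TAD animals modelled thoracic aortic dissection: from the age of 3 weeks they drank β-aminopropionitrile, a lysyl oxidase inhibitor that weakens collagen and elastin crosslinks, at 1 g/kg per day for 4 weeks. At 7 weeks they received an osmotic pump that delivered 1 μg/kg per min of angiotensin II, and tissue was taken 24 h later. Treatment and age of the controls, and strain and sex, are not given in the sources used here. In any difference between the groups, the parts of the drugs and of the dissection itself cannot be told apart. The labels number the libraries as replicates without saying that each came from its own mouse, and a p-value here speaks only of how libraries varied.

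In this system renin cleaves angiotensinogen, a protein made mainly by the liver, to angiotensin I, and angiotensin-converting enzyme trims that peptide to angiotensin II. Angiotensin II acts on the AT1 receptor of smooth muscle cells to contract the vessel, and it raises matrix, growth and inflammatory genes there. Aminopeptidases break the peptide down further, and renin release by the kidney is held back by angiotensin II, which closes the loop.

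The sequences below carry the chemistry on which these genes are grouped. They encode the peptide itself and the zinc-binding motif of the enzymes that process it (HExxH, whose histidines hold the catalytic zinc). They were read from GENCODE M21 transcripts on GRCm38, 5′ to 3′ on the coding strand. Capitals mark the 10 codons of angiotensin I in Agt and the 5 codons of the motif in the enzymes, and lower case marks the flanking codons. Positions give the capitals only.
Agt, codons 30 to 39, minus strand, chr8:124564450-124564479: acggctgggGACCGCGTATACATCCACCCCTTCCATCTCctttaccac
Ace, first motif, codons 395 to 399, plus strand, chr11:105972910-105972924: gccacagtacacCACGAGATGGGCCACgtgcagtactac
Ace, second motif, codons 993 to 997, plus strand, chr11:105985094-105985108: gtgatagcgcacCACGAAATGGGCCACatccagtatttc
Enpep, codons 385 to 389, minus strand, chr3:129309772-129309786: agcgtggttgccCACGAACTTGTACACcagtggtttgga
Lnpep, codons 464 to 468, minus strand, chr17:17570877-17570891: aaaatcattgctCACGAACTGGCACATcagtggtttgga
Ace carries the motif in each of its 2 catalytic domains. A shorter testis form of Ace starts inside the gene and keeps only the second domain. The counts are per gene and do not separate the forms.

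None of the 6 measured genes passed the test between TAD and control aortas (edgeR's quasi-likelihood test, Benjamini-Hochberg adjusted p below 0.05 over 13701 tested genes, which is what "called" means below). Over all tested genes, 27% were called, 15.2% higher and 11.8% lower in TAD. For none of the 6 were the TAD and control libraries without overlap in CPM (counts scaled to library size), against 31.9% of all tested genes. All 6 passed the filter on low counts. Among the fitted log2 fold changes, 3 were above 0 and 3 below, with a median of 0.02, against 0.04 over all tested genes. The count was 0 with DESeq2 too, where 4747 of all 13832 tested genes were called. It was also 0 without TAD 1 and control 1 (1963 of 13693), or without TAD 2, control 1 and control 2 (2982 of 13563). These were not all the libraries that carried other tissue. Control 4, at 3149 CPM of cardiomyocyte markers, was kept in these fits. It was left out alone in another fit, where the count was also 0, beside 2756 of 13676 genes called. Control 2 had 721 CPM of the skeletal muscle marker Ckm. Before adjustment, Enpep alone was past 0.05 in edgeR. The 6 fell into 2 kinds: Agt, Ren1 and Ace varied widely among libraries of the same group, whereas Agtrap, Enpep and Lnpep were steady.

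**Figure D1:**
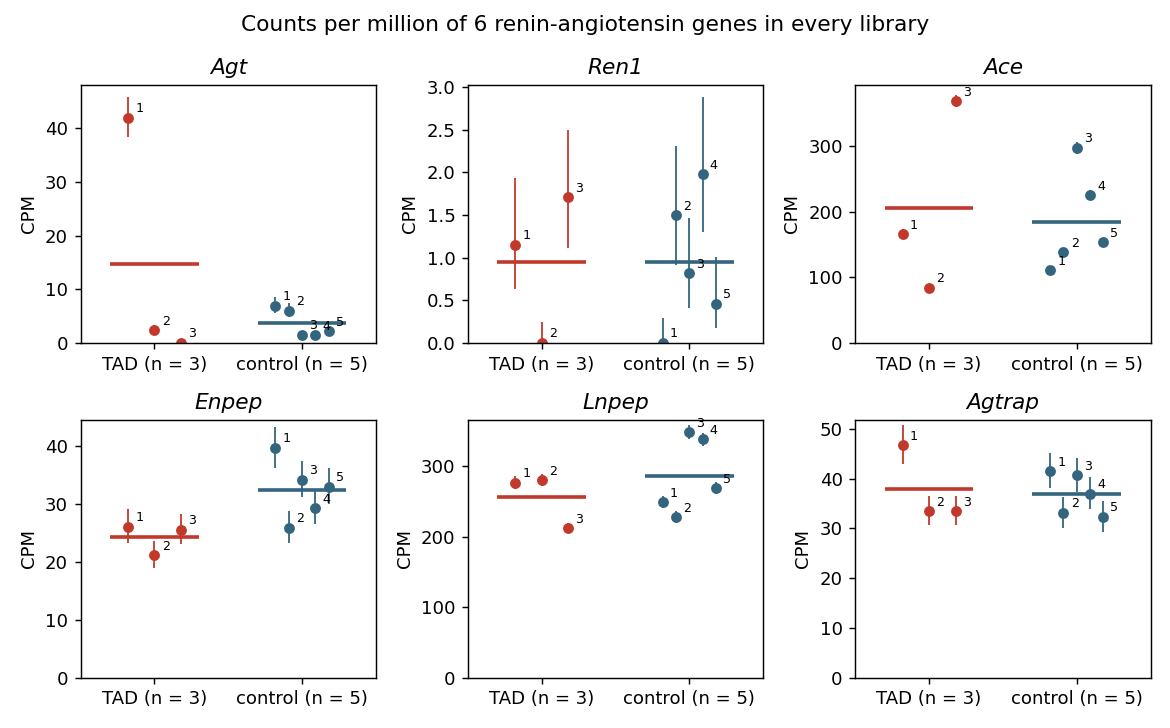
CPM of the 6 genes in each of the 3 TAD and 5 control libraries, numbered by replicate, with exact 95% Poisson intervals as vertical bars and group means as horizontal lines. The TAD and control points overlap in all 6 panels, and Agt in TAD 1 lies at 42.0 CPM.

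The libraries held 12042971 to 15039132 counts. They differed in the tissue they carried. Beyond fits with a marker score as a covariate, the part of this in the values below was not tested. Contractile smooth muscle markers were present in all 8 libraries (8 of 8 marker genes), with a summed level of 842 to 5167 CPM in TAD and 2219 to 12790 CPM in control, and 1 of the 8, Synpo2, was called, lower in TAD. Cardiomyocyte markers (7 of 8 listed genes in the table) summed to 12799, 1775 and 17.0 CPM in TAD 1, 2 and 3, against 18888, 1460, 30.5, 3149 and 13.5 CPM in control 1 to 5; 2 of the 7 were at 0 in TAD 3 and 1 in control 5. TAD 1 and control 1 thus stood apart, and TAD 2 stood apart in neuronal markers (1403 CPM, against at most 93.3 CPM in any other library). White adipocyte markers summed to 2811 to 4167 CPM in TAD and 7348 to 8767 CPM in control, and 6 of 8 were called lower. In such bulk samples, fewer cells of a type and less RNA per cell cannot be told apart.

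Agt encodes angiotensinogen, the precursor of all angiotensin peptides, and lies on chr8:124556534-124569706 (GRCm38, minus strand). Its level was 42.0, 2.39 and 0 CPM in TAD 1, 2 and 3 (511, 36 and 0 counts). In control 1 to 5 it was 6.94, 6.00, 1.49, 1.47 and 2.23 CPM (87, 80, 20, 20 and 29 counts). The TAD libraries lay on both sides of all controls: one was far above, one among them and one below. TAD 1 held 93.4% of all TAD counts of Agt (exact binomial 95% interval 91.0 to 95.3%). Its level was 6.05 times that of the highest control and 17.6 times that of TAD 2, and at least 213-fold higher than TAD 3, taking a floor of 3 counts in that library (0.197 CPM). Group means were 14.8 ± 23.6 CPM in TAD and 3.63 ± 2.64 CPM in control (SD, n = 3 and 5). The log2 fold change was 2.02 ± 1.34 (SE; 95% interval -1.03 to 5.08; edgeR adjusted p = 0.294), and without TAD 1 it was -1.62 (adjusted p = 0.427). TAD 1 and control 1, the libraries highest in Agt in their groups, were also the highest in cardiomyocyte markers (12799 CPM in TAD 1 and 18888 CPM in control 1). Beyond that the control orders differed: control 4, at 3149 CPM of these markers, had the lowest Agt of the controls (1.47 CPM). Control 2, at 1460 CPM, had 6.00 CPM of Agt. Control 1 exceeded TAD 1 in these markers but lay below it in Agt (6.94 against 42.0 CPM). With the cardiomyocyte score as a covariate, the log2 fold change of Agt was 0.45 ± 1.44 (adjusted p = 0.84). That fit adjusts the group difference for the score and does not measure how much Agt came from heart tissue, which was not tested. Hepatocyte markers (2 of 6 in the table) reached at most 1.59 CPM in TAD and 63.4 CPM in control, and their part in the Agt values was not tested.

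The 250 bases before the Agt start are shown because Agt varied most of the 6 genes. They were taken from the RefSeq promoter table (GRCm38.p6, minus strand, chr8:124569707-124569956, 5′ to 3′). Capitals mark the letters TATAAA, 30 bases before the start, and a match to TTCNNNGAA, the letters bound by STAT factors, 172 bases before it.
Agt promoter: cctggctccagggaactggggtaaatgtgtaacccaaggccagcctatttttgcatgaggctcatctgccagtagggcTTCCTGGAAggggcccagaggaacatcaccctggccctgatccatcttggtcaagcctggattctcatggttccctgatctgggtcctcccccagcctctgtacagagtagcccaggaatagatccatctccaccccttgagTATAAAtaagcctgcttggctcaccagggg
Searched on both strands, TATAAA occurred in the first promoter of 4 of the 6 genes (Agt, Ren1, Ace and Enpep, in Ace and Enpep on the opposite strand), against 12.4% of 32851 RefSeq mouse promoters of the same length. TTCNNNGAA occurred in Agt and Enpep, against 7.02% of promoters. Agtrap and Lnpep held no TATAAA in this window. A match of letters is a description and not a site.

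Ren1 encodes renin, the protease that starts the cascade, and lies on chr1:133350510-133360325 (plus strand). It had the lowest mean FPKM of the 6 in both groups. Its level was 1.15, 0 and 1.71 CPM in TAD 1, 2 and 3 (14, 0 and 26 counts), against 0, 1.5, 0.820, 1.98 and 0.461 CPM in control 1 to 5 (0, 20, 11, 27 and 6 counts). Each group held a library at 0 and libraries above 1 CPM, so the groups overlapped throughout. Means were 0.953 ± 0.871 CPM in TAD and 0.952 ± 0.794 CPM in control (SD, n = 3 and 5). The log2 fold change was -0.01 ± 1.22 (95% interval -2.79 to 2.78; adjusted p = 0.998, edgeR), so at 104 counts over all libraries a difference of several-fold either way was not detectable. Some mouse strains carry a near-identical renin gene, Ren2, and with the strain not given the Ren1 counts are uncertain. Kidney tubule markers were nearly missing (1 of 6 in the table, at most 2.23 CPM in TAD and 8.68 CPM in control).

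Ace encodes angiotensin-converting enzyme, which sits on endothelial cells and also inactivates bradykinin, and lies on chr11:105967945-105989964 (plus strand). Its level was 166, 83.9 and 368 CPM in TAD 1, 2 and 3 (2020, 1266 and 5608 counts), against 111, 139, 297, 225 and 153 CPM in control 1 to 5. The lowest and the highest of the 8 libraries were both TAD libraries. Means were 206 ± 146 CPM in TAD and 185 ± 75.6 CPM in control (SD, n = 3 and 5), and the log2 fold change was 0.16 ± 0.48 (95% interval -0.94 to 1.25; edgeR adjusted p = 0.837). Without TAD 3 it was -0.57 (adjusted p = 0.367). Of its merged exon bases, 5.58% are shared with Gm11651 on the opposite strand.

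Within each group, the Ace level ran beside the smooth muscle and pericyte markers of the libraries. Their order by summed contractile smooth muscle markers, and also by summed pericyte markers, was their order by Ace, from TAD 3 over TAD 1 to TAD 2 and from control 3 over 4, 5 and 2 to control 1. Per 1000 CPM of these markers, Ace stood at 99.9, 99.6 and 71.3 CPM in TAD 1, 2 and 3, against 50.1, 30.1, 23.2, 27.5 and 22.8 CPM in control 1 to 5. Per 1000 CPM of pericyte markers it stood at 335, 209 and 316 CPM in TAD, against 124, 131, 158, 143 and 107 CPM in control. On both scales every TAD library exceeded every control, and the markers do not tell these cell types apart as the one that ran with Ace. A fit with the smooth muscle score as a covariate gave Ace a log2 difference of 1.14 ± 0.23 (edgeR adjusted p = 0.0129). It was the only fit of all those run in which any of the 6 genes was called, and it called 2703 of all 13701 tested genes. These ratios and this fit were added after the values were seen. All 8 smooth muscle markers and 5 of 6 pericyte markers had fitted changes below 0 in TAD, so the ratios can move with their denominators as well as with Ace. Per 1000 CPM of endothelial markers, Ace overlapped between groups, at 130, 88.1 and 334 CPM in TAD and 66.0, 106, 198, 138 and 85.3 CPM in control. The endothelial markers (8 of 8 in the table) summed to 952 to 1281 CPM in TAD and 1304 to 1794 CPM in control, and 4 of 8 were called lower. Adventitial fibroblast markers summed to 1718, 481 and 2293 CPM in TAD 1, 2 and 3, the same order as Ace. In control 1 to 5 they summed to 1274, 1789, 1639, 1400 and 1188 CPM, another order than that of Ace. Macrophage markers also had the order of Ace in TAD (1018, 664 and 1362 CPM) but not in control. No ratio of Ace to fibroblast or macrophage markers was taken.

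**Figure D2:**
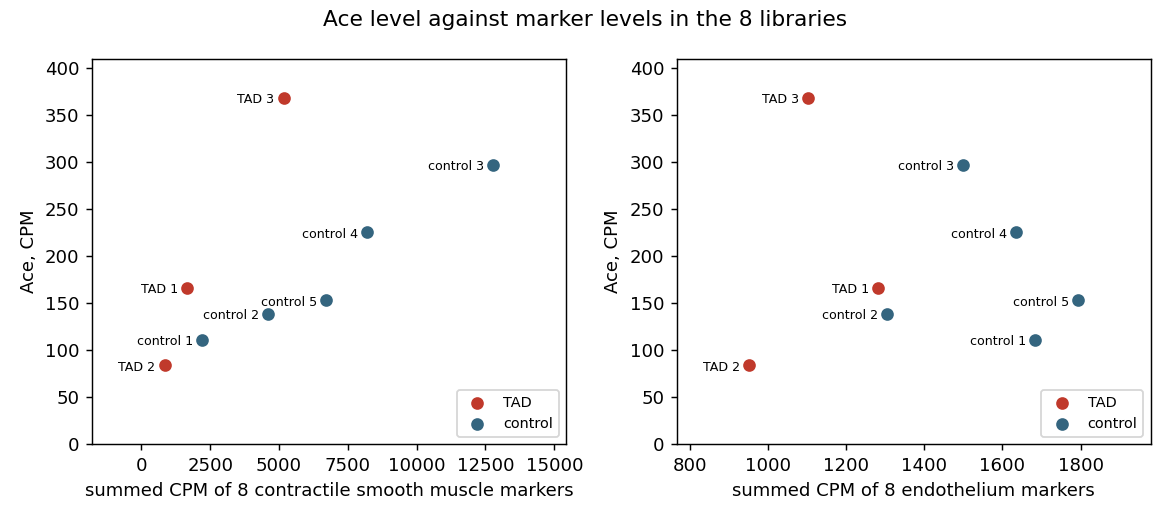
Ace CPM (y axis) against the summed CPM of 8 contractile smooth muscle markers (left) and 8 endothelial markers (right), 1 point for each of the 3 TAD and 5 control libraries. On the left, the 3 TAD points lie above the run of control points, at 71.3 to 99.9 CPM of Ace per 1000 CPM of markers against 22.8 to 50.1 CPM in control.

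Enpep encodes aminopeptidase A, which removes the first residue of angiotensin II to make angiotensin III, and lies on chr3:129269175-129332720 (minus strand). It came closest to the threshold of the 6 genes. Its level was 26.1, 21.2 and 25.6 CPM in TAD 1, 2 and 3, against 39.8, 25.9, 34.2, 29.3 and 33.0 CPM in control 1 to 5. All TAD libraries lay below 4 of the 5 controls, and the overlap was between TAD 1 and control 2 alone. Means were 24.3 ± 2.69 CPM in TAD and 32.5 ± 5.22 CPM in control (SD, n = 3 and 5). The log2 fold change was -0.42 ± 0.17 (95% interval -0.80 to -0.04), or 0.749-fold, with an edgeR adjusted p of 0.0957. An exact two-sided permutation test of the mean log2 CPM gave p = 0.0536, where the smallest possible over 56 divisions is 0.0179. The fitted value was below 0 in all 22 alternative fits, and none of them called Enpep (adjusted p 0.0596 to 0.302). Pericytes, a cell type known to carry aminopeptidase A, were represented by 6 of 6 markers, which summed to 401 to 1165 CPM in TAD and 896 to 1878 CPM in control, and 3 of the 6 (Rgs5, Higd1b and Notch3) were called lower. Their part in the Enpep value was not tested.

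Lnpep encodes insulin-regulated aminopeptidase, the binding site of angiotensin IV, and lies on chr17:17521410-17625050 (minus strand). Its level was 277, 280 and 212 CPM in TAD 1, 2 and 3, against 249, 228, 348, 338 and 269 CPM in control 1 to 5. TAD 1 and TAD 2 sat in the middle of the controls and TAD 3 below them. Means were 257 ± 38.4 CPM in TAD and 287 ± 53.9 CPM in control (SD, n = 3 and 5), and the log2 fold change was -0.16 ± 0.19 (95% interval -0.59 to 0.27; edgeR adjusted p = 0.565).

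Agtrap encodes the AT1 receptor-associated protein, which promotes internalization of the receptor, and lies on chr4:148077061-148088031 (minus strand). Its level was 46.8, 33.5 and 33.4 CPM in TAD 1, 2 and 3, against 41.5, 33.1, 40.7, 37.0 and 32.3 CPM in control 1 to 5. TAD 1 was the highest of all libraries, and TAD 2 and TAD 3 were within the control range. With means of 37.9 ± 7.68 CPM in TAD and 36.9 ± 4.2 CPM in control (SD, n = 3 and 5), Agtrap had a log2 fold change of 0.04 ± 0.16, and its 95% interval of -0.33 to 0.40 was the narrowest of the 6 (edgeR adjusted p = 0.886). The sign turned in 8 of 22 alternative fits.

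Levels of different genes were compared per gene length, in FPKM (fragments normalised to gene length and sequencing depth). In TAD the order by mean level was Ace at 17.8 ± 12.7, Lnpep at 11 ± 1.59, Agtrap at 7.91 ± 1.62, Agt at 3.93 ± 6.28, Enpep at 2.30 ± 0.268 and Ren1 at 0.532 ± 0.487 FPKM (SD, n = 3). In control it was Ace at 15.6 ± 6.46, Lnpep at 12 ± 2.45, Agtrap at 7.52 ± 0.808, Enpep at 2.98 ± 0.386, Agt at 0.935 ± 0.673 and Ren1 at 0.531 ± 0.457 FPKM (SD, n = 5). The orders differ only in the places of Agt and Enpep, and Agt exceeded Enpep in 1 library, TAD 1. Of the neighbours in these orders, all but Enpep and Ren1 overlapped in their library values in TAD, whereas in control only Ace and Lnpep, and Agt and Ren1, overlapped. Ace exceeded Lnpep in 6 of 8 libraries, and Lnpep exceeded Agtrap in all 8.

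The genes whose log2 CPM ran closest to each member over the 8 libraries were found by the root-mean-square difference after centring, as a description over libraries that share depth and tissue content. For Ace they were Sod3 (0.106), Slc2a10 (0.168) and Igfbp7 (0.172), against a spread of 0.668 for Ace itself. Sod3, the extracellular superoxide dismutase of the vessel wall, stood at 458, 215 and 913 CPM in TAD 1, 2 and 3, against 306, 343, 672, 511 and 410 CPM in control 1 to 5, which is the same order of libraries as for Ace. For Agt the nearest genes were Synpo2l, Shox2 and Myoc, at 1.04, 1.05 and 1.12 against a spread of 2.17, so no gene followed it closely. Synpo2l, a gene of heart and skeletal muscle, was at 149, 29.8 and 1.77 CPM in TAD and at 103, 53.0, 6.49, 23.2 and 4.45 CPM in control. For Ren1 they were Angpt4, Comp and Col1a2, for Agtrap Med16, Casp6 and Wbp11, for Enpep Akip1, Ehmt1 and Eps15l1, and for Lnpep Kdm5a, Heca and Plin4. On log2(FPKM + 1), 5 of these 18 genes were named again. Of the 18, Ehmt1, a histone methyltransferase, was called (log2 fold change -0.46, edgeR adjusted p = 0.0351).

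**Figure D3:**
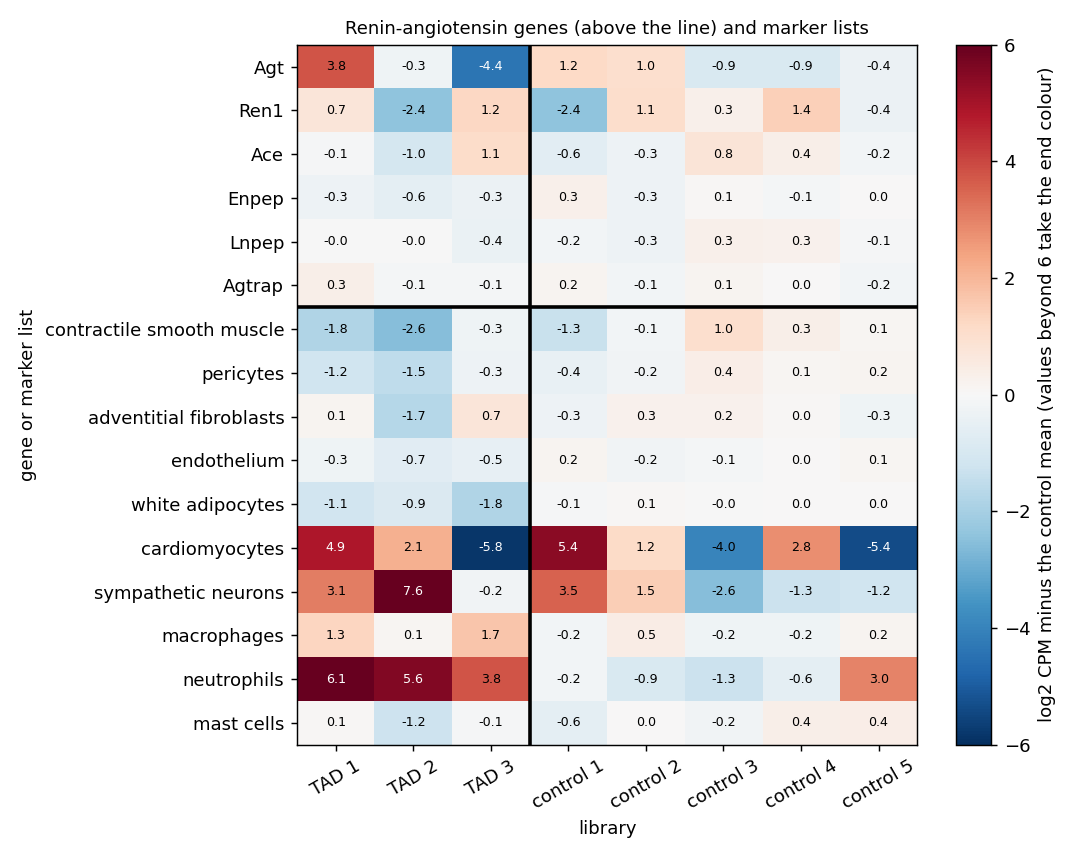
Log2 CPM of the 6 genes (above the line) and mean log2 CPM of 10 lists of cell type markers (below it), each minus its control mean, in the 3 TAD libraries (left) and 5 control libraries (right). Agt is highest in TAD 1 and lowest in TAD 3, as the cardiomyocyte markers are within TAD, and Enpep, Lnpep and Agtrap vary least.

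Around these genes, 4 lists of the wider pathway held 84 genes, of which 74 were tested. Of these, 25 were called higher and 11 lower, against 15.2% and 11.8% of all tested genes. The list of angiotensin II responsive genes held 16 of the 25. Of the 74 genes, 36 were thus called, against 27% of all tested genes (3705 of 13701). Without TAD 1 and control 1, 19 pathway genes were called, beside 1963 of all 13693 genes tested in that fit. The lists were drawn up with earlier results of these data known, so their directions are not independent evidence.

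Among the other angiotensin enzymes and receptors, 17 were tested, with 3 called higher (17.6%, against 15.2% of all tested genes) and 2 lower (11.8%, as over all tested genes), and a median log2 fold change of 0.01. The list as a whole was thus at the background, and the calls below are those of single genes. Mme encodes neprilysin, which cuts angiotensin I to angiotensin 1-7 and also degrades bradykinin and natriuretic peptides. It was at 25.6, 39.4 and 68.7 CPM in TAD 1, 2 and 3, against 153, 163, 153, 171 and 187 CPM in control 1 to 5, and no TAD library came near a control. The log2 fold change was -1.89 ± 0.30 (edgeR adjusted p = 0.00276), and Mme was called in all 22 alternative fits. Prep, prolyl endopeptidase, which also releases angiotensin 1-7, was at 74.5, 58.8 and 63.3 CPM in TAD, against 38.2, 45.4, 38.4, 35.5 and 38.1 CPM in control (log2 fold change 0.74 ± 0.13, adjusted p = 0.00398). Thop1, thimet oligopeptidase, had a log2 fold change of 0.74 ± 0.18 (adjusted p = 0.0197), which without TAD 1 was 0.63 (adjusted p = 0.0799). These peptidases, all able to form angiotensin 1-7, thus differed in direction. Atp6ap2, the (pro)renin receptor and a part of the vacuolar proton pump, was at 80.0, 153 and 80.0 CPM in TAD, against 55.2, 55.5, 58.9, 71.4 and 52.1 CPM in control. Its log2 fold change was 0.83 ± 0.23 (adjusted p = 0.0281), and the call was lost without control 1, 2, 3 or 5 (0.79 to 0.83, adjusted p 0.0565 to 0.0652) or without TAD 2 (0.45, adjusted p = 0.0524). The other gene called lower was Igf2r, the mannose 6-phosphate receptor that takes up prorenin (-0.67 ± 0.17, adjusted p = 0.0213), and it lost its call without TAD 1 (-0.63, adjusted p = 0.0791). The number called lower was 1 without TAD 1 and 4 without TAD 3, beside 1141 of 13776 and 1660 of 13802 of all tested genes.

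Among 26 genes of AT1 receptor signalling and desensitisation, 3 were called higher (11.5%, against 15.2% of all tested genes) and 7 lower (26.9%, against 11.8%), with a median log2 fold change of -0.18. Arrb2 encodes β-arrestin 2, which binds the activated receptor and ends its coupling to G proteins. It was at 72.1, 98.0 and 38.7 CPM in TAD 1, 2 and 3, against 16.6, 14.4, 10.7, 13.1 and 13.4 CPM in control 1 to 5 (log2 fold change 2.35 ± 0.27, edgeR adjusted p = 0.000841). Arrb2 was called in all 22 alternative fits. The other 2 called higher were Jak2, a kinase downstream of the receptor (0.89 ± 0.15, adjusted p = 0.00397), and Grk2, which phosphorylates it (0.60 ± 0.12, adjusted p = 0.00846). In the 22 alternative fits Jak2 lost its call in 2 and Grk2 in 5, among them both fits that left out more than 1 library. Arrb2 and Jak2 are also expressed in leukocytes, whose markers rose in the same libraries: 5 of 6 neutrophil markers were called higher, with sums of 421 to 1080 CPM in TAD and 8.06 to 117 CPM in control, and their part was not tested. Of the genes lower in TAD, Itpr1, the calcium release channel of the sarcoplasmic reticulum, was at 58.5, 56.9 and 133 CPM in TAD, against 163, 186, 346, 289 and 279 CPM in control (-1.61 ± 0.38, adjusted p = 0.0152). Rgs5, which shortens G protein signals in pericytes and smooth muscle and is also in the pericyte marker list, was at 214, 188 and 398 CPM in TAD, against 513, 539, 957, 880 and 726 CPM in control (-1.44 ± 0.33, adjusted p = 0.0142). Rgs2, a regulator that acts on Gq, was at 62.7, 104 and 71.3 CPM in TAD, against 262, 155, 236, 184 and 104 CPM in control (-1.25 ± 0.32, adjusted p = 0.0219), and TAD 2 and control 5 were nearly equal. Gna11, a G protein subunit that couples the receptor to phospholipase C, fell as well (-0.70 ± 0.14, adjusted p = 0.0072). It lost its call in 4 of 22 alternative fits, none of which left out a single library. The remaining 3 lost their calls in fits without 1 library. For Gna12 (-0.51 ± 0.14) this was control 1, 4 or 5 or any TAD library (adjusted p 0.0532 to 0.071). For Arhgef12 (-0.79 ± 0.25) it was any library other than TAD 3 (adjusted p 0.0514 to 0.0917). For Mtus1 (-0.55 ± 0.14) it was control 3, control 4 or TAD 3 (adjusted p 0.0501 to 0.0616). Without TAD 1, only 2 genes of the list were called lower, beside 1141 of all 13776 tested genes. Itpr1 (-1.42, adjusted p = 0.0642), Rgs5 (-1.31, adjusted p = 0.0618) and Rgs2 (-1.12, adjusted p = 0.0731) lost their calls there. The number was 4 without TAD 3 (1660 of 13802), where Rgs2 also lost its call (-1.18, adjusted p = 0.0595), and 4 without control 4 (1218 of 13676).

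In the kinin and mineralocorticoid arm, which opposes or follows angiotensin, 8 genes were tested, and 3 were called higher (37.5%, against 15.2% of all tested genes) and 2 lower (25%, against 11.8%), with a median log2 fold change of 0.34. Bdkrb1, the inducible bradykinin B1 receptor, was at 6.82, 0.199 and 18.9 CPM in TAD 1, 2 and 3, against 0, 0.450, 0.224, 0.807 and 0.23 CPM in control 1 to 5. TAD 2 lay within the control range. Its log2 fold change was 4.61 ± 1.20 (edgeR adjusted p = 0.023). Without control 4 Bdkrb1 did not pass the filter on low counts and was not tested. The call was lost without control 3 (4.49, adjusted p = 0.0547), control 5 (4.50, adjusted p = 0.0572) or TAD 3 (3.31, adjusted p = 0.0801). It was also lost with limma on log2(FPKM + 1) (1.31, limma adjusted p = 0.069) and on log2(FPKM + 0.1) (2.73, limma adjusted p = 0.0811). Bdkrb2, the constitutive B2 receptor, was at 3.37, 10.2 and 14.5 CPM in TAD, against 1.36, 2.62, 4.03, 2.57 and 1.23 CPM in control (1.98 ± 0.53, adjusted p = 0.0252). That call was lost without control 1, 4 or 5 or TAD 2 (1.82 to 2.01, adjusted p 0.0509 to 0.0542) and without TAD 3 (1.52, adjusted p = 0.0850). Nr3c2 encodes the mineralocorticoid receptor, through which aldosterone acts, and was at 4.11, 7.03 and 5.91 CPM in TAD, against 21.6, 26.2, 28.0, 19.7 and 16.8 CPM in control. All TAD libraries were well below all controls (-1.98 ± 0.26, adjusted p = 0.00128). Sgk1, a kinase that the mineralocorticoid and glucocorticoid receptors both induce, was at 280, 211 and 257 CPM in TAD, against 76.1, 61.3, 110, 150 and 117 CPM in control (1.28 ± 0.27, adjusted p = 0.0105). The receptor and this target gene therefore had opposite directions. The other gene called lower was Nr3c1, the glucocorticoid receptor (-0.89 ± 0.17, adjusted p = 0.00693). The number called higher was 1 without control 4, control 5 or TAD 3. Of all tested genes, 1538 of 13676, 1531 of 13646 and 2054 of 13802 were called higher in these 3 fits.

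Of 23 tested genes known to respond to angiotensin II in vascular cells, 16 were called higher (69.6%, against 15.2% of all tested genes) and none lower, with a median log2 fold change of 2.5. None was called lower in DESeq2, limma or any other fit run, and none was lower in edgeR at p below 0.05 before adjustment. Of the 23 fitted changes, 19 were above 0 and 4 below. Those below 0 were Nr4a1 (-1.02), Atf3 (-0.42), Egr1 (-0.21) and Dusp1 (-0.04). Leaving out 1 library gave 11 to 15 called higher, fewest without TAD 3, where 2054 of all 13802 tested genes were called higher. Il6, interleukin 6, was at 96.8, 8.55 and 174 CPM in TAD 1, 2 and 3, against 0.239, 0, 0, 0.220 and 0 CPM in control 1 to 5. With 6 control counts in all, its fitted log2 fold change of 9.86 ± 1.15 (edgeR adjusted p = 0.000828) is loosely set, and it was 9.03 without TAD 3, 10.48 without control 1 and 10.45 without control 4. Spp1, osteopontin, was at 111, 106 and 345 CPM in TAD, against 0.319, 1.27, 1.27, 0.147 and 0.461 CPM in control (8.05 ± 0.69, adjusted p = 0.000289), and its value was 7.26 without TAD 3. Ccl2, the monocyte-attracting chemokine, was at 188, 181 and 123 CPM in TAD, against 2.63, 3.52, 0.895, 0.807 and 2.23 CPM in control (6.34 ± 0.47, adjusted p = 0.000201). Ptgs2, the inducible cyclooxygenase, was at 181, 49.5 and 923 CPM in TAD, against 7.10, 3.67, 15.2, 20.7 and 3.46 CPM in control (5.26 ± 0.98, adjusted p = 0.00575), and 3.52 without TAD 3. Macrophage markers, of which 3 of 7 were called higher, summed to 664 to 1362 CPM in TAD and 331 to 634 CPM in control. Many of the 23 genes are also made by leukocytes, and the part of these cells was not tested.

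**Figure D4:**
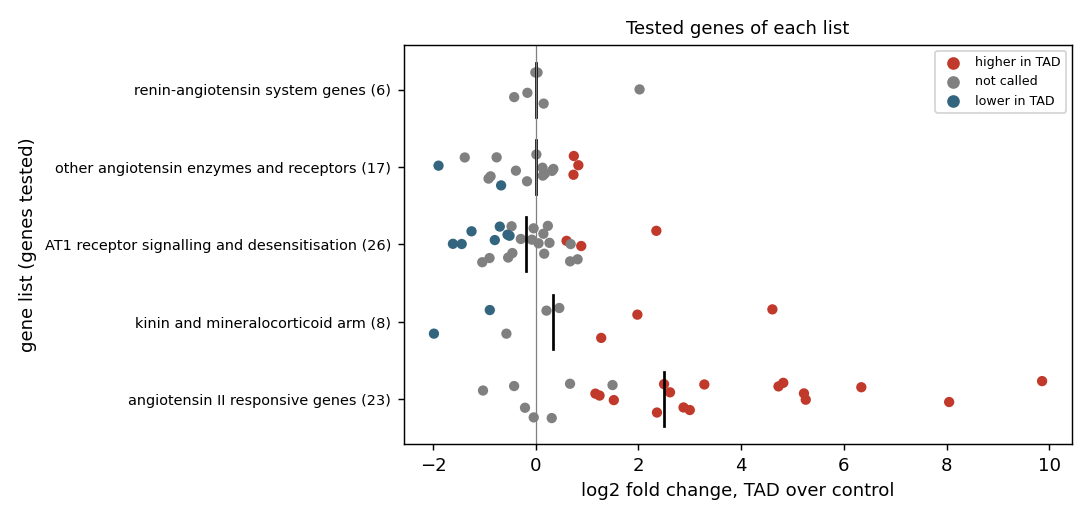
Log2 fold changes (TAD over control) of every tested gene of the 6 renin-angiotensin genes and the 4 pathway lists, 1 point a gene, with the list median as a vertical bar and colours for genes called higher or lower. The 6 genes hold no called gene, and 16 of 23 angiotensin II responsive genes are called higher.

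**Figure D5:**
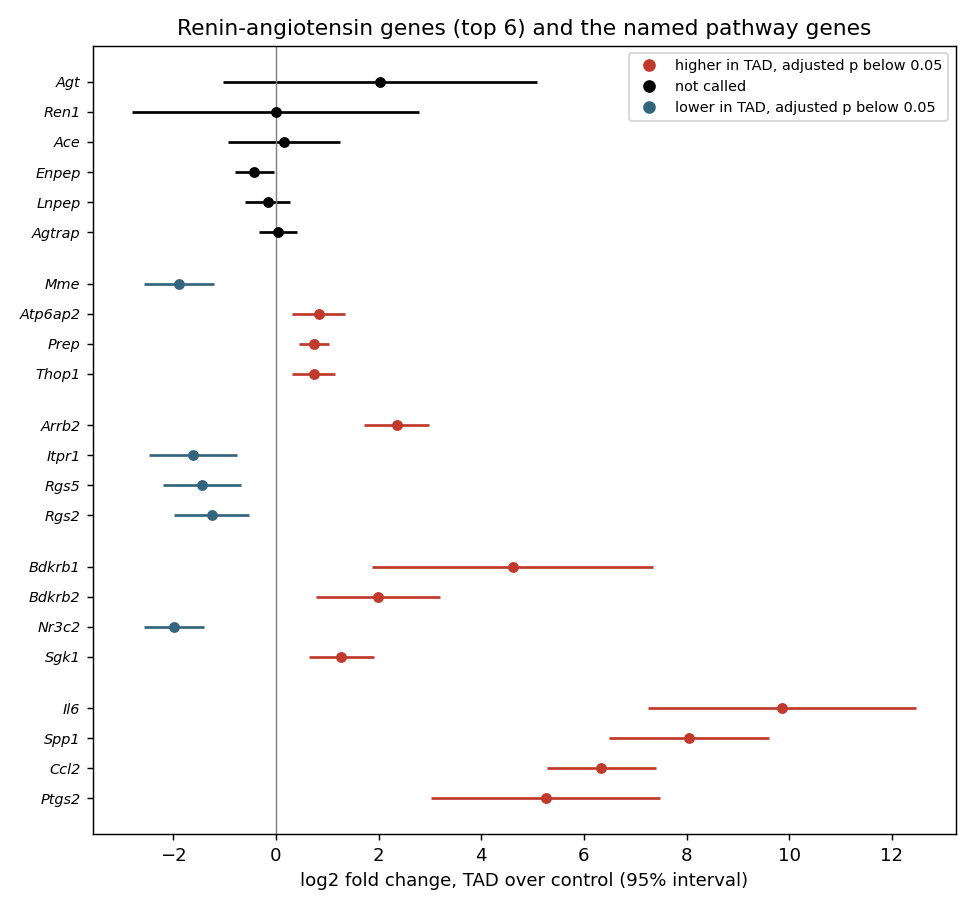
Log2 fold changes (TAD over control) with 95% intervals of the 6 renin-angiotensin genes (top) and of the 4 named genes of each pathway list (below), from the edgeR fit over 3 TAD and 5 control libraries. The interval of Agtrap runs from -0.33 to 0.40, that of Agt from -1.03 to 5.08, and that of Mme lies below 0.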

How the data were processed

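Total RNA of mouse aortic tissue was sequenced with the NEBNext Ultra kit, per the labels' protocols. Tools named in the submitters' processing notes are HISAT2, HTSeq, fastp 0.23.1 and bcl2fastq 2.19, beside human builds, whereas 13821 of 13839 gene identifiers are in mouse GENCODE M21. The build and strand setting are not given in the sources used here. Per the file headers, the authors deposited raw read counts and FPKM values for each gene and library. No gene of the table is at 0 in more than 5 libraries. No 2 libraries agreed within sampling noise.

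Counts were filtered (filterByExpr), TMM-scaled and fitted in edgeR 4.0.16 under R 4.3.3 (13701 genes, no covariate, quasi-likelihood F test, Benjamini-Hochberg threshold 0.05), a procedure tested on simulated data. The biological coefficient of variation was 41.6%. SE is the absolute log2 fold change over the square root of F. CPM uses TMM-scaled totals, and log2 CPM a prior count of 2. Poisson and binomial intervals and floors cover counting error only, and reads had no molecular identifiers. Alternatives used DESeq2 1.42.0 and limma 3.58.1 on log2(FPKM + 1) or log2(FPKM + 0.1). The genes and lists were chosen with earlier results of these data known. Named were all listed members, the 4 called genes of largest change in each pathway list, and the 3 genes nearest to each member with a mean of at least 1 FPKM. Jak2, Grk2, Gna11, Gna12, Arhgef12, Mtus1, Igf2r and Nr3c1 were added after their values were seen. Of the listed pathway genes, 10 were not analysed here.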

Additional observations from a re-analysis of the deposited data

Results flagged for a closer look

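None of the 6 renin-angiotensin genes or the named pathway genes had a control library that stood apart from the other 4. Of 48 values examined over the 5 controls, 4 did, all of them summed cell type markers, where chance gives about 1 in 20. Each value below is the gap between the highest control and the next, as a share of the control range. For cardiomyocyte markers it was 0.834, from control 1 at 18888 CPM, and for sympathetic neuron markers 0.807, from control 1 at 93.3 CPM. For neutrophil markers it was 0.921, from control 5 at 117 CPM, and for hepatocyte markers 0.845, from control 5 at 63.4 CPM. The markers of skeletal muscle, adventitial fibroblasts, brown adipocytes, mast cells and adrenal cortex were not examined in this way. Ckm, the 1 skeletal muscle marker in the table, was at 721 CPM in control 2 and 92.5 CPM in control 1, the next highest control. The 3 TAD libraries were too few for this measure.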

How the results depend on the processing

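No listed gene was called in any of the 22 alternatives, except Ace with the smooth muscle score as a covariate (1 call, log2 fold change 1.14, edgeR adjusted p = 0.0129, added after the data were seen). In that fit 2703 of all 13701 tested genes were called. That fit gave -0.44 for Agt, 2.01 for Ren1 and -0.0206 for Agtrap. Leaving out each library gave log2 fold changes of -1.62 to 2.61 for Agt, -0.76 to 0.58 for Ren1, -0.57 to 0.53 for Ace, -0.15 to 0.12 for Agtrap, -0.50 to -0.33 for Enpep and -0.25 to -0.04 for Lnpep, and 2549 to 3728 called genes, against 3705 in the full set; the pathway lists then held 27 to 33 called genes, against 36. Without TAD 1 and control 1, 1963 genes and 19 pathway genes were called, with Agt at -1.22 and Agtrap at -0.10. Without TAD 2, control 1 and control 2, Ren1 was at 0.38. Upper-quartile factors gave -0.0142 for Agtrap. The white adipocyte score as a covariate, whose values did not overlap between the groups, left 707 genes and 7 pathway genes called, with Agt at 11.72 (SE 6.59), Ren1 at -3.93 (SE 4.00), Ace at -2.85, Lnpep at 0.35, Bdkrb1 at -1.57 and Ptgs2 at -1.14. The cause of these shifts was not tested.

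The labels do not say that the replicate numbers pair mice, so the numbers were not taken as pairs. Same-numbered libraries deviated together with correlations of 0.427, 0.0972 and 0.544, which do not settle the question. TAD 1 and TAD 3 correlated best with their own number and TAD 2 with control 1. With the replicate block over replicates 1 to 3, 1166 genes and 16 pathway genes were called, and Agt was at -0.59, Ren1 at 0.45 and Agtrap at -0.0325. Without the block, over the same 6 libraries, 1536 and 17 were called, with Ren1 at 0.29 and Agtrap at -0.0216. Ren1 had 104 counts and Agt 783 over the 8 libraries, and both also spread between libraries beyond their counting intervals. Bdkrb1 did not pass the count filter without control 4 or over replicates 1 to 3, and has no value there. Ratios of group mean levels in CPM in place of FPKM moved by less than their spread for all 6 genes.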
